A study of Mus musculus with 8 samples.

Results

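The genes described here encode LIM domain and ankyrin repeat proteins from families known for mechanosensing in muscle, together with Mustn1. They are Csrp3, Csrp1, Ankrd1, Ankrd2, Ankrd23, Lmcd1, Mustn1, Fhl1, Fhl2 and Fhl3, which makes 10 genes among the 22206 probe sets of a Clariom S Mouse array, where a probe set is the group of short probes that measures a gene. All 10 were found by symbol, each on 1 probe set listed for that symbol alone, and all 10 were marked as expressed in both groups. The genes were chosen by their function and by their measured difference between the groups, so their group differences are a description, no p-value is given for them, and the calls below say only on which side of a threshold each gene lies. RNA came from the gastrocnemius (GAS) muscle of male C57/Bl6j mice aged 22 weeks, 3 months after an injection of adeno-associated virus (AAV) at about 10 weeks of age. In the MYTHO-KD group (4 arrays) the AAV carried a sh-RNA (an RNA hairpin that silences its target) directed at MYTHO, and in the scramble group (4 arrays) the contralateral leg received a scramble sh-RNA. Both were driven by the same U6 promoter, which is active in all cell types and does not restrict the sh-RNA to muscle fibres. The AAV was injected into the muscle and was of serotype 1, which the paper describes as targeting skeletal muscle cells.

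The data analysed are the authors' average and standard deviation (SD) of the log2 signal in each group, and values of single arrays were not used. Group averages ran from 3.18 to 19.93 over all probe sets, the median SD was 0.27 in each group, and the median difference was -0.01. The target, listed as D230025D16Rik, averaged 7.71 (SD 0.66) in MYTHO-KD and 10.02 (SD 0.37) in scramble, which leaves 20.2% of the scramble signal. All 13 fast fibre markers were marked as expressed in both groups, but 9 of them averaged over 19 in both groups and 3 (Myh4, Myl1 and Atp2a1) lay at the table's maximum of 19.93 with an SD of 0 in both, so their mean levels of 19.24 in MYTHO-KD and 19.23 in scramble do not measure whether fast fibre content differed. In whole muscle RNA, fewer cells of a type and less RNA per cell cannot be told apart. A probe set's level depends on its probes, so levels are compared between groups and not between genes.

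LIM domains are zinc-binding folds that join proteins to each other, and ankyrin repeats do the same through stacked helices. The muscle ankyrin repeat proteins Ankrd1, Ankrd2 and Ankrd23 bind the elastic N2A region of titin in the sarcomere and can also move to the nucleus. The Csrp and Fhl proteins sit at the Z-disc, the I-band or the actin cytoskeleton and act as scaffolds and transcriptional cofactors. Through this double location the families are known as links between mechanical load and gene expression in heart and skeletal muscle. Mustn1 has neither fold, and is a small protein first described in the developing and regenerating musculoskeletal system.

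In MYTHO-KD muscles, 4 of the 10 genes were called higher, namely Csrp3, Ankrd2, Lmcd1 and Mustn1. A call takes a difference of 2-fold or more together with p under 0.05 before adjustment, from limma's moderated fit. Over the whole array 0.86% of probe sets were called higher by this rule and 0.257% lower. For p under 0.05 alone, the share over all probe sets was not counted. Nothing is read from the list counts by that rule given below. None of the 10 was called lower, 9 had a positive difference and 1 a negative one, and the median difference was 0.625 on the log2 scale. Because the choice of genes used this contrast, the calls are no test of these genes and nothing is read from the counts. The 6 genes that were not called had differences from -0.14 to 0.65. For comparison, the 5th and 95th percentiles of all probe sets were -0.47 and 0.53.

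**Figure D1:**
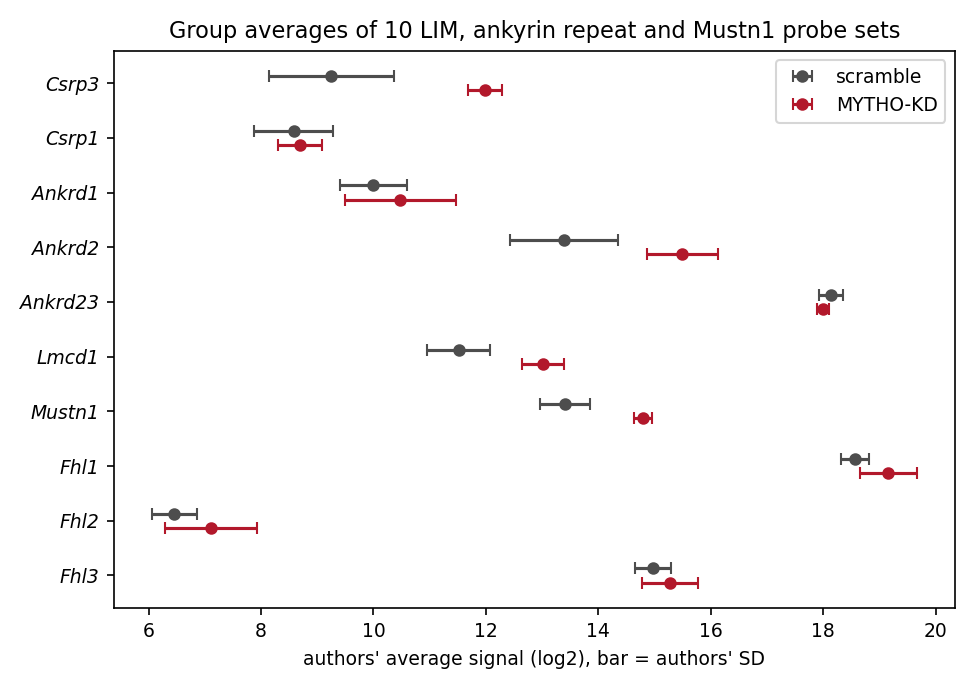
Authors' average signal (log2, horizontal axis) of the 10 genes in scramble (grey) and MYTHO-KD (red), with bars for the authors' SD over 4 arrays. The SD bars of the groups stand apart for Csrp3, Ankrd2, Lmcd1 and Mustn1 and overlap for the other 6 genes.

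Csrp3 encodes muscle LIM protein, a Z-disc protein needed for the normal architecture of heart muscle cells and found in slow fibres of skeletal muscle. It lies on chromosome 7 from 48830398 to 48848051 (build mm10, as are the positions that follow). The authors' average was 11.99 (SD 0.30) in MYTHO-KD and 9.25 (SD 1.11) in scramble. The difference of 2.74 (moderated standard error 0.433), or 6.68-fold, was the largest of the 10 genes. On the array, 11 probe sets, itself included, had a difference of at least this size. This rank is a description, since the difference was used to choose the genes. Its relative Csrp1, a LIM protein of smooth muscle and other actin-rich cells, lies on chromosome 1 from 135720061 to 135752232. Csrp1 averaged 8.69 (SD 0.39) in MYTHO-KD and 8.58 (SD 0.70) in scramble, a difference of 0.11 (standard error 0.318). The gap between the differences of both Csrp genes was 2.63, which is a description, since this contrast was used to choose the genes.

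The muscle ankyrin repeat genes had differences of unequal size. Ankrd2, which encodes a stretch-responsive protein known mainly from slow fibres, lies on chromosome 19 from 42036000 to 42045110. It averaged 15.49 (SD 0.63) in MYTHO-KD and 13.39 (SD 0.96) in scramble, a difference of 2.10 (standard error 0.432) or 4.29-fold. Ankrd1 (CARP), a cardiac stress gene that is low in resting skeletal muscle, lies on chromosome 19 from 36111965 to 36119844. Ankrd1 averaged 10.48 (SD 0.98) and 10.00 (SD 0.59), and its difference of 0.48 (standard error 0.431) was smaller than the SD of either group. Ankrd23, the member of this family linked to energy metabolism, lies on chromosome 1 from 36530194 to 36536556. It averaged 18.00 (SD 0.11) and 18.14 (SD 0.21), and with -0.14 (standard error 0.164) it was the only gene of the 10 with a lower average in MYTHO-KD. The difference of Ankrd2 exceeded that of Ankrd1 by 1.62 and that of Ankrd23 by 2.24, which again is a description and no test.

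Lmcd1, a LIM protein that acts on GATA factors and on calcineurin signalling in heart muscle, lies on chromosome 6 from 112273758 to 112330425. It averaged 13.02 (SD 0.37) in MYTHO-KD and 11.52 (SD 0.56) in scramble, a difference of 1.5 (standard error 0.277) or 2.83-fold. Mustn1, on chromosome 14 from 30879257 to 30881610, averaged 14.79 (SD 0.16) and 13.41 (SD 0.45). Its difference of 1.38 (standard error 0.221), or 2.60-fold, was the smallest of the 4 called genes but the largest of the 10 relative to spread, at 2.26 times the sum of both SDs. This ratio was 1.94 for Csrp3, 1.61 for Lmcd1 and 1.32 for Ankrd2, and under 1 for the other 6 genes. With an adjusted p under 0.05 in place of the unadjusted one, a rule that calls 0.171% of probe sets higher and 0.0856% lower, Csrp3 and Mustn1 lay inside the threshold and Ankrd2 and Lmcd1 outside it, which again is a description.

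The genes of the four-and-a-half LIM (Fhl) family had positive differences below 2-fold, none of them called. Those of Fhl1 and Fhl2 lay above 0.53, the 95th percentile of all probe sets, which is a description. Fhl1, the most studied family member of skeletal muscle and the gene of reducing body myopathy, lies on chromosome X from 56731761 to 56793346. It averaged 19.16 (SD 0.50) in MYTHO-KD and 18.56 (SD 0.25) in scramble, a difference of 0.60 (standard error 0.244). Fhl1 is 1 of 38 probe sets with a group average over 19, close to the ceiling of the array, and whether this limited its difference was not tested. At a threshold of 1.5-fold, by which 3.54% of probe sets are called higher and 2.25% lower, Fhl1 joined the called genes and made 5. Fhl2, the main cardiac member, on chromosome 1 from 43123071 to 43196761, averaged 7.11 (SD 0.82) and 6.46 (SD 0.40), a difference of 0.65 (standard error 0.354). Fhl3, which binds actin and MyoD in skeletal muscle, on chromosome 4 from 124700699 to 124708611, averaged 15.28 (SD 0.50) and 14.98 (SD 0.32), a difference of 0.30 (standard error 0.254). The differences of Fhl1 and Fhl2 were 0.05 apart and those of Fhl1 and Fhl3 were 0.30 apart, and these gaps were not tested.

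**Figure D2:**
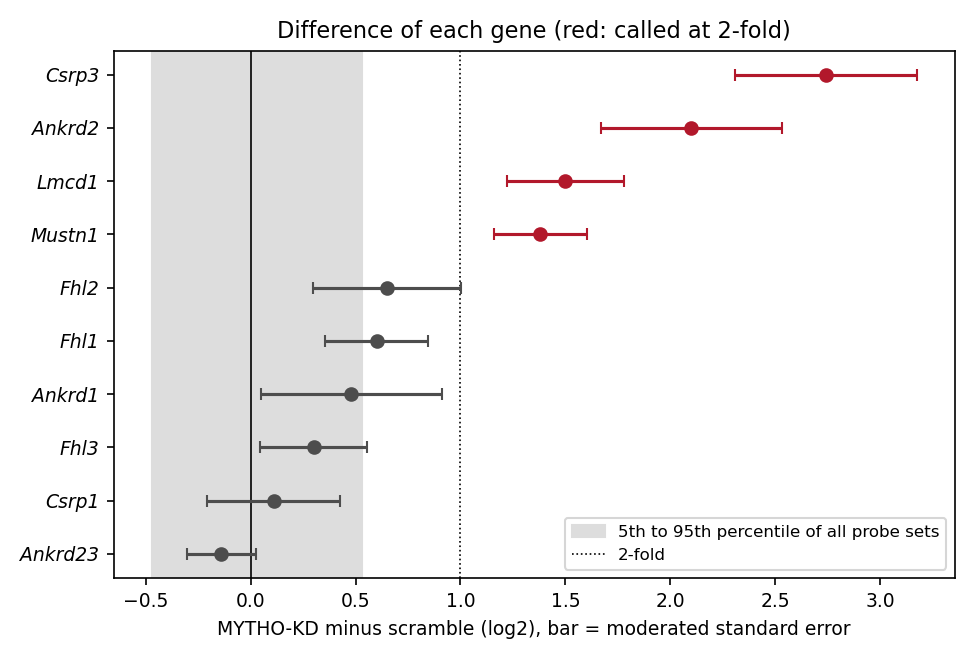
Difference of MYTHO-KD minus scramble (log2, horizontal axis) for the 10 genes, with bars for the moderated standard error, the range from the 5th to the 95th percentile of all probe sets in grey, and 2-fold as a dotted line. Csrp3 (2.74), Ankrd2 (2.10), Lmcd1 (1.5) and Mustn1 (1.38) lie beyond 2-fold, and the other 6 genes lie between -0.14 and 0.65.

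The spread between arrays differed among these genes. In scramble, the SD of Csrp3 was larger than that of 99.8% of all probe sets, that of Ankrd2 than 99.7% and that of Csrp1 than 98.4%. Spread between muscles and technical spread cannot be told apart here. In MYTHO-KD, the SD of Csrp3 was larger than that of only 57.0% of probe sets, and that of Mustn1 than 17.9%. All 4 called genes had the larger SD in scramble. Over the whole array, 28.8% of the probe sets called higher and 49.5% of all probe sets had the larger SD in scramble. Of the 6 genes not called, 4 had the larger SD in MYTHO-KD, and Ankrd1 there was more variable than 99.4% of probe sets.

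Csrp3 and Ankrd2 are known from slow fibres, so the slow fibre markers were set beside them. Of 12 slow fibre markers, 1 was called higher (Myoz2) and 0 lower (limma), with the same counts for p under 0.05 alone. The differences of these markers were positive for 5 and negative for 7, with a median of -0.165. Their mean level was 11.69 in MYTHO-KD and 11.79 in scramble, and all 12 were marked as expressed in both groups. The spread of these markers was large, with an SD above 1 for 8 of 12 in MYTHO-KD and for 4 of 12 in scramble. Tnni1, slow troponin I, averaged 9.84 (SD 3.67) in MYTHO-KD and 10.87 (SD 1.43) in scramble, and Myh7, slow myosin, averaged 11.67 (SD 3.26) and 12.40 (SD 1.30). In the same MYTHO-KD arrays the SD was 0.30 for Csrp3 and 0.63 for Ankrd2. The part of this variation in the differences of Csrp3 and Ankrd2 was not tested.

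**Figure D3:**
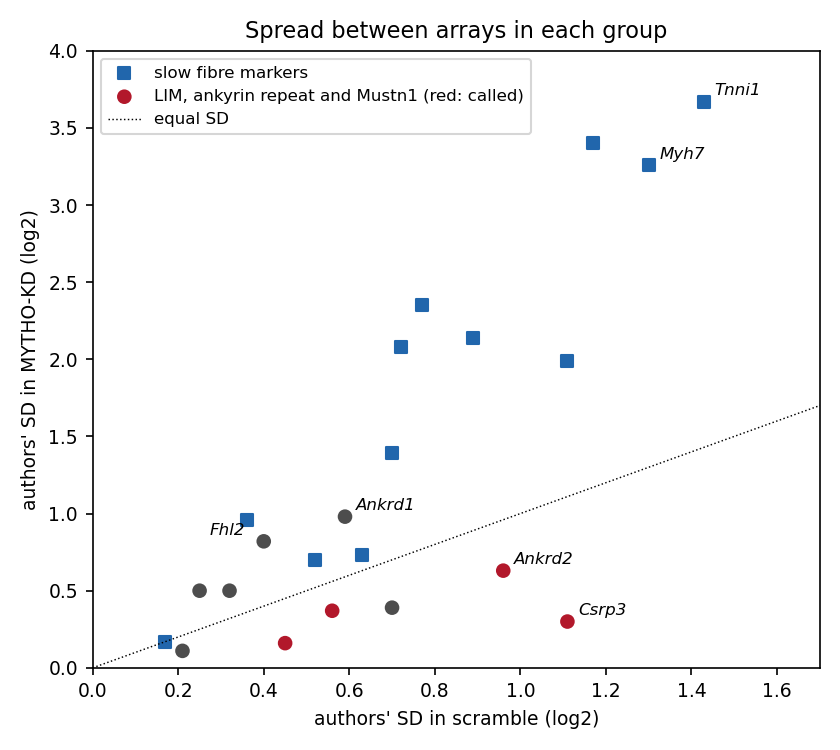
Authors' SD (log2) in MYTHO-KD (vertical axis) against scramble (horizontal axis) for the 10 genes (circles, red where called) and the 12 slow fibre markers (blue squares), with equal SDs as a dotted line. The 4 called genes lie below the line, while Tnni1 and Myh7 have SDs above 3 in MYTHO-KD.

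Other genes of the same families were mostly not called, and the same holds for the whole array. There, 0.86% of probe sets were called higher and 0.257% lower. The list counts that follow were not tested against these shares. No contrast with the genes described above is read from them, since those genes were chosen partly by their difference. Of 47 further LIM domain genes, only Pdlim1 was called higher and 0 were called lower, with a median difference of 0.13, and 5 were higher and 0 lower at p under 0.05 alone. Pdlim1, an alpha-actinin-binding PDZ and LIM protein, averaged 15.86 (SD 0.90) in MYTHO-KD and 14.18 (SD 0.65) in scramble, a difference of 1.68 (standard error 0.419, adjusted p = 0.134, limma). Of 43 further Ankrd genes, only Ankrd27 was called higher and 0 lower, with a median of -0.09. Ankrd27 (VARP), an endosomal trafficking protein, averaged 8.64 (SD 0.23) and 7.40 (SD 0.30), a difference of 1.24 (standard error 0.195, adjusted p = 0.0292, limma). At p under 0.05 alone, 3 of the Ankrd genes were higher and 2 lower.

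The partners of these proteins in the Z-disc and along titin were measured by 38 probe sets, of which 5 were called higher and 0 lower, while 7 were higher and 4 lower at p under 0.05 alone. Their median difference was 0.07. Lmod2, an actin filament nucleator, had the largest difference, at 1.72 (standard error 0.353, adjusted p = 0.0754, limma). Xirp1, an actin-binding protein of the Xin family, averaged 10.95 (SD 0.26) in MYTHO-KD and 9.81 (SD 0.31) in scramble, a difference of 1.14 (standard error 0.202), and was the only one of the 38 to pass the adjustment over all probe sets (adjusted p = 0.0443, limma). Filamin C (Flnc) and the calcineurin-binding calsarcin gene Myoz2 were also higher by 1.14, with adjusted p of 0.0776 and 0.200 in limma's test. The co-chaperone gene Bag3 was higher by 1.03 (adjusted p = 0.320, limma). Titin itself (Ttn) had a difference of -0.26 (standard error 0.153, adjusted p = 0.550, limma), and Tcap, which caps titin at the Z-disc, one of 0.12 (standard error 0.265, adjusted p = 0.914, limma), so neither was called.

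The Hippo pathway effectors YAP and TAZ and the SRF cofactors of the MRTF family are the best known routes from tension to transcription, and Ankrd1 is a widely used YAP target. Of 23 Hippo and TEAD regulators, 1 was called higher and 0 lower, with 6 higher and 1 lower at p under 0.05 alone and a median difference of 0.23. The called gene was Vgll2, a TEAD cofactor of muscle, at 1.37 (standard error 0.375, adjusted p = 0.162, limma). Yap1 averaged 8.53 (SD 0.19) in MYTHO-KD and 7.75 (SD 0.53) in scramble, a difference of 0.78 (standard error 0.245, adjusted p = 0.221, limma) that did not reach 2-fold. Of 22 other YAP and TAZ target genes, 3 were called higher and 0 lower, and the median was 0.135. They were the matricellular genes Ctgf (1.29, standard error 0.455) and Cyr61 (1.22, standard error 0.327) and the receptor gene Axl (1.03, standard error 0.247), with adjusted p of 0.283, 0.154 and 0.120 in limma's test. At p under 0.05 alone, 6 of the targets were higher and 0 lower, a count with no share of all probe sets beside it. Ankrd1, by comparison, differed by 0.48, and the gap to these genes was not tested.

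Srf itself had a difference of 0.11 (standard error 0.226, adjusted p = 0.906, limma). None of 13 SRF and MRTF regulators was called, while 1 was higher and 2 were lower at p under 0.05 before adjustment (limma). The largest differences were those of the MRTF gene Mkl2 (-0.56), of the kinase gene Rock2 (-0.40) and of the formin gene Diaph1 (0.40). Of 25 SRF and MRTF target genes, Egr1 alone was called higher and 0 were called lower, with 6 higher and 0 lower at p under 0.05 alone and a median of 0.22. Egr1, an immediate early gene, averaged 9.58 (SD 1.48) and 8.24 (SD 0.76), and its difference of 1.34 (standard error 0.609, adjusted p = 0.413, limma) was no longer called without moderation of the variances.

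**Figure D4:**
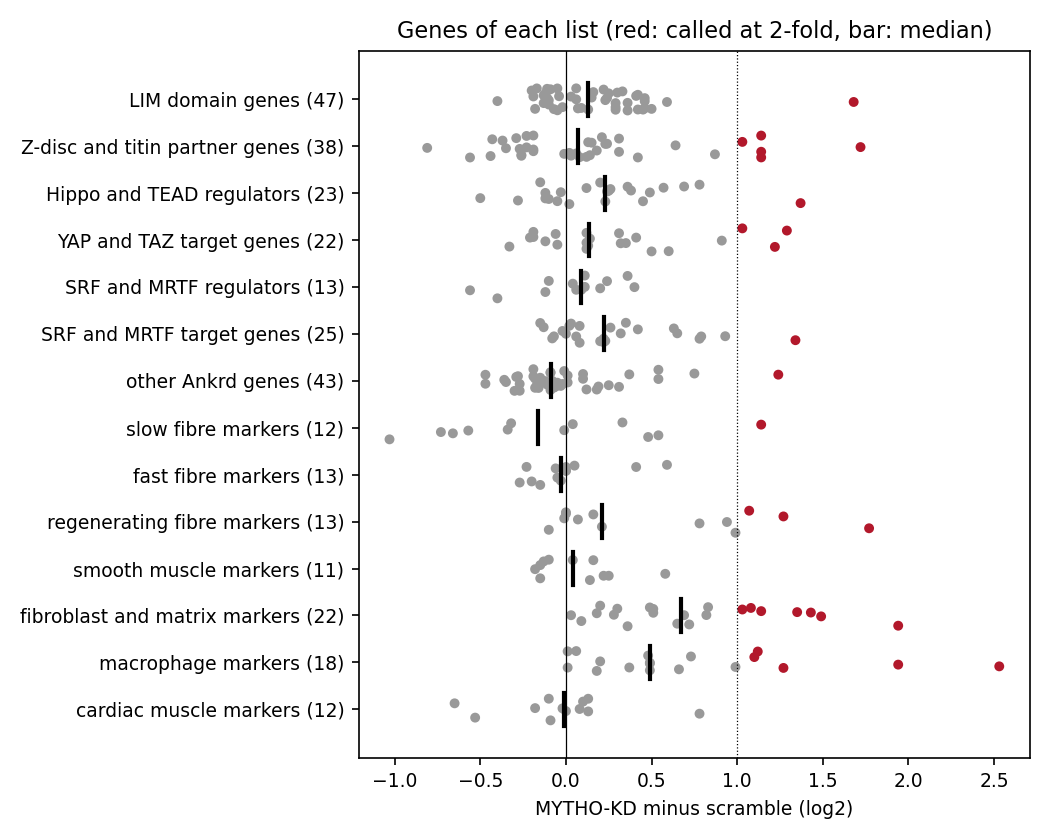
Difference of MYTHO-KD minus scramble (log2, horizontal axis) for each gene of 14 lists, with the number measured in brackets, called genes in red, the list median as a black bar and 2-fold as a dotted line. All called genes of the lists lie on the higher side, and the fibroblast and macrophage lists have the highest medians, at 0.67 and 0.49.

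Markers of other cells and fibre types were set beside these genes in the same arrays. Of 22 fibroblast and matrix markers, 7 were called higher and 0 lower, led by Bgn (1.94), Lum (1.49) and Col3a1 (1.43), and their mean level was 9.91 in MYTHO-KD and 9.18 in scramble. Of 18 macrophage markers, 5 were called higher and 0 lower, led by Cd68 (2.53), Lyz2 (1.94) and C1qb (1.27), at mean levels of 7.23 and 6.5. Of 13 markers of regenerating fibres, 3 were called higher and 0 lower, Tmem8c (1.77), Myh3 (1.27) and Chrna1 (1.07), at mean levels of 8.77 and 8.22, and Chrng was not marked as expressed in both groups. With an adjusted p under 0.05 (limma) beside 2-fold, 2 fibroblast and matrix markers, 2 macrophage markers and 0 regenerating fibre markers stayed called. At p under 0.05 before adjustment (limma), 11, 9 and 6 markers of these lists were higher and 0 were lower. None of 11 smooth muscle markers was called, nor did any pass p under 0.05 before adjustment (limma). Their differences were positive for 6 and negative for 5, with Mylk (0.58), Myh11 (0.25) and Cnn1 (0.22) farthest from 0. Their mean levels were 9.33 and 9.27. None of 12 cardiac markers was called either, with 1 higher and 2 lower at p under 0.05 before adjustment (limma), mean levels of 5.47 and 5.50, Tbx20 not marked as expressed in both groups, and the largest differences those of Tnnt2 (0.78), Ryr2 (-0.65) and Nppb (-0.53). Among the fast fibre markers 0 of 13 were called and 2 were higher at p under 0.05 before adjustment (limma), and since most of them lie near the ceiling of the array, the lack of calls says little. Those that differed most were Myh1 (0.59), Myh2 (0.41) and Casq1 (-0.27). Myh2 averaged 19.91 (SD 0.01) in MYTHO-KD, close to the table's maximum of 19.93, and 19.5 (SD 0.16) in scramble. In another muscle, the tibialis anterior, the paper reports lower Myh2 by RT-qPCR after MYTHO-KD. Myh8 among the regenerating fibre markers and Acta1 among the SRF and MRTF targets also lay at the maximum in both groups. The part of these cell types in the differences of Csrp3, Ankrd2, Lmcd1 and Mustn1 was not tested.

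To show what stands before these genes, the stretch upstream of the start was read from RefSeq promoters of build GRCm38.p6, which hold 15 windows for the 10 genes among 32851 in all. The 250 bases before each start were searched on both strands for the TEAD-binding MCAT motif (CATTCC), the E-box bound by myogenic factors (CANNTG), the CArG box bound by SRF and the MEF2 motif. No matches overlapped in the windows mapped for these genes. The 3 called genes whose mapped window holds a match and Ankrd1, which has the MCAT motif but was not called, are printed 5′ to 3′, up to the base before the earliest RefSeq start of the gene, with the matches in capitals.
Csrp3, chr7:48848052-48848301, minus strand: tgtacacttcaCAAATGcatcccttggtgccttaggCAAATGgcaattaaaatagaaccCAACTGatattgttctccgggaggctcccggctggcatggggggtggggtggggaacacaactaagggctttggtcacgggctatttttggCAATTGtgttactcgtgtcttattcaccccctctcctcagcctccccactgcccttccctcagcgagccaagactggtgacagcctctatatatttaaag
Ankrd2, chr19:42035777-42035916, plus strand: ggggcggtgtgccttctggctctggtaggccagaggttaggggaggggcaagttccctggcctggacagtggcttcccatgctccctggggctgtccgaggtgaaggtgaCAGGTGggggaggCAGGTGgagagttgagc
Lmcd1, chr6:112273508-112273757, plus strand: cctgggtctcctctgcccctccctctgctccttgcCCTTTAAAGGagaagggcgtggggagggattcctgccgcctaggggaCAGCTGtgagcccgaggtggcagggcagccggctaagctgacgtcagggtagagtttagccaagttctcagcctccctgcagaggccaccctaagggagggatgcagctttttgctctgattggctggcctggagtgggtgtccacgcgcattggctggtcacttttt
Ankrd1, chr19:36119845-36120094, minus strand: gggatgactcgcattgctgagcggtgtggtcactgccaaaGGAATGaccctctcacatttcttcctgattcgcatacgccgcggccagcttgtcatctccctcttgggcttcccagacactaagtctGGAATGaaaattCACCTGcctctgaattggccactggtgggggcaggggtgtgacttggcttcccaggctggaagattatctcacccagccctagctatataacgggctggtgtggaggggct

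In Csrp3 the capitals mark 4 E-boxes and in Ankrd2 2 E-boxes, with the third of its window outside the stretch shown. In Lmcd1 they mark 1 CArG box and then 1 E-box, and in Ankrd1 2 MCAT motifs, which read CATTCC on the strand opposite the one printed, and 1 E-box. E-boxes were present in 12 of the 15 windows, and in 66.2% of all windows. A CArG box was present in 4 of the 15 windows, those of Fhl1, Fhl2 and Lmcd1, and in 1.47% of all windows. These 4 windows belong to 3 genes, so windows are not independent, and the shares were not tested. The mapped windows of Fhl1, Fhl2 and Fhl3 lie past the earliest RefSeq start of their gene. MCAT was present in 2 of the 15, of Ankrd1 and Ankrd23, and in 12.6% of all, and the MEF2 motif in 1 of the 15, of Fhl2, and in 2.92% of all. No motif was shared by all 4 called genes, and the mapped window of Mustn1 held no match. A match is a string of letters in this window and no measured site.

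**Figure D5:**
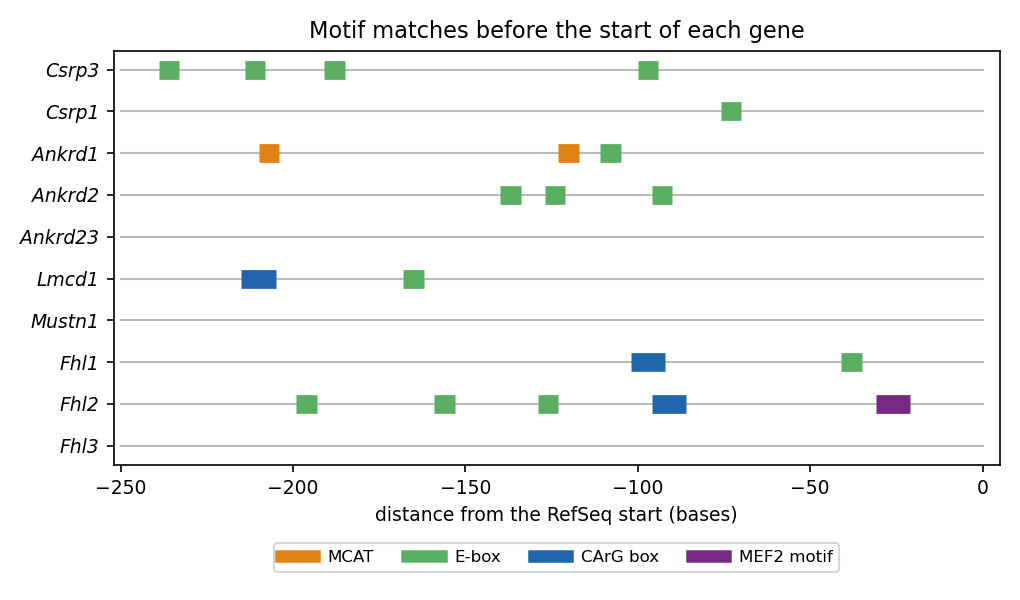
Matches to 4 motifs (coloured blocks) in the 250 bases before the RefSeq start of each of the 10 genes, by distance from the start in bases; where a gene has several starts, the one nearest the gene's 5′ end in the deposited table is drawn, which for Fhl1 is 47922 bases away. Csrp3 has 4 E-boxes, Ankrd1 2 MCAT motifs, and Mustn1, Ankrd23 and Fhl3 no match in the window drawn.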

How the data were processed

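Total RNA of GAS muscle from 8 samples was hybridized to Clariom S Mouse arrays. Per the study's methods the authors ran the Transcriptome Analysis Console at its defaults (SST-RMA), while the submitters' processing notes name Affymetrix Expression Console and RMA. The deposited table (28 columns, decimal comma, annotation of build mm10) gives an average and an SD per group on the log2 scale. It holds 0 columns of single arrays, and the kind of average is not stated. Its other numeric columns hold the authors' own fold change, p-value and false discovery rate, which were not used.

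Groups came from the sample titles. A list gene with several probe sets was represented by its brightest one. Differences were tested two-sided with limma 3.58.1 in R 4.3.3. The variances of both groups, taken from the deposited SDs, were averaged with 6 residual degrees of freedom. limma's squeezeVar then drew them towards a prior SD of 0.284 with 5.85 prior degrees of freedom, with Benjamini-Hochberg adjustment over 22206 probe sets. On simulated arrays, with plain averages and unrounded SDs, the test gave the same p-values as limma run on the arrays themselves. This check does not cover rounded SDs, SDs of 0 or another kind of average. A call requires at least 2-fold and p under 0.05 before adjustment, the thresholds of the study's methods. The calls are not the study's own. This fit called 191 probe sets higher and 57 lower, and the paper reports fewer genes in each direction. If the averages are not plain means, the standard errors and p-values are somewhat too low. A deposited SD of 0 occurred in 21 probe sets, which kept their place in the test through moderation. The labels do not say whether the samples of a group came from separate mice, so the p-values measure the spread between these samples, which may be technical in part.

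The genes and lists were chosen with earlier results of these data known. Some lists share genes with another list. Named are the 10 genes, D230025D16Rik, Ttn, Tcap, Yap1 and Srf, the called genes of each list (up to 5, otherwise the 2 most changed) and the 3 most changed of each marker list. List symbols absent from the table were looked up by RefSeq synonym. Arrays have no read depth, and their number limits the precision. Alternatives tried were unmoderated variances, an intensity trend with a robust prior, unequal variances, other thresholds, leaving out the dimmest 30% of probe sets (below 5.715), centring on the median and the dimmest probe set of a gene. A planned comparison of protein sequences was not run.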

Additional observations from a re-analysis of the deposited data

How the results depend on the processing

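As a description, since this contrast chose the genes, Csrp3, Ankrd2, Lmcd1 and Mustn1 lay past the threshold without moderation and with an intensity trend. They also lay past it with unequal variances, without dim probe sets and after centring. The sign of all 10 differences was the same with the dimmest probe set and after centring, but neither setting could change it. Each gene has 1 probe set, and centring removed only the median of -0.01, against a smallest difference of 0.11 (Csrp1). With an adjusted p under 0.05 beside 2-fold, 2 of the 4 calls were left, and the counts of calls became 57 of 248 over all probe sets, 1 for the Z-disc and titin partners, 4 for the marker lists, and 0 for the LIM domain genes, the Hippo and TEAD regulators, the YAP and TAZ targets and the SRF and MRTF targets, because fewer pass the adjustment. At 1.5-fold the counts were 1287 over all probe sets, 8 for the partners, 25 for the markers, 6 for the SRF and MRTF targets, 5 for the YAP and TAZ targets, 3 for the Hippo and TEAD regulators, 2 for the LIM domain genes and 2 for the further Ankrd genes, because the limit is wider. The call of Egr1 among the SRF and MRTF targets was lost (0 calls) without moderation, with an intensity trend, with unequal variances and without dim probe sets; the cause was not tested.

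No paired analysis was possible because the table holds 1 average and 1 SD per group and no column of single arrays; for the same reason the planned removal of each replicate in turn was not run.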
